A study of Homo sapiens with 6 samples.

Results

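BaF3-T315I cells are murine BaF3 cells, a pro-B line whose parental cells depend on interleukin 3, stably transfected with BCR-ABL carrying the T315I mutation, which blocks imatinib binding. All 6 samples carried this transgene, and 3 were controls while 3 were given 1.1 µM of I13, an inhibitor of histone deacetylases, with 48 h of exposure per the study. The vehicle and time of the controls are not named in the labels, and neither do they say whether the replicates came from separate cultures. The study states in general that its results come from independent experiments, without naming the sequencing libraries, so p-values measure the spread between these samples, which may be technical. The genes described here are those of glycolysis and lactate handling, a list of 32 mouse genes given by name. Of these, 29 were found by symbol among the 22413 genes of the table, and Eno2, Ldhb and Pdk2 are not analysed here. Of the 29, 26 had a mean of at least 0.5 FPKM over the 6 samples and were tested, and 3 (Hk3, Aldoc and Slc16a3) lay under that level. FPKM counts the fragments on a gene, divided by gene length and by library depth, and so allows levels of different genes to be compared.

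Glycolysis splits glucose into pyruvate in 10 enzymatic steps in the cytosol. Glucose enters through facilitative transporters, is trapped by hexokinase, and passes a controlled step at phosphofructokinase. Pyruvate is then either reduced to lactate by lactate dehydrogenase and exported with a proton by monocarboxylate transporters, or oxidised in mitochondria, a branch that pyruvate dehydrogenase kinases close. Proliferating leukemia cells are known for a high glucose uptake and lactate output, and signals from BCR-ABL as well as the factor HIF-1α are known to raise transcription of many of these genes.

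Whole fragments could be recovered from the FPKM of 22412 genes, which gave totals between 16762119 and 17722950 fragments per library, and Pearson correlations of log2(FPKM + 0.1) between samples lay from 0.945 to 0.968 across genes. Of the 10 genes checked as marks of the line, Ptprc, Il3ra, Csf2rb, Csf2rb2, Cd79a and Cd79b were above 1 FPKM in all samples, and the B-lineage genes Igll1, Vpreb1, Ebf1 and Pax5 were at or below 0.107 FPKM. The erythroid, T cell and fibroblast markers summed to at most 7.52, 0.0591 and 0.13 FPKM in any sample. Of the 3 macrophage markers, Csf1r stayed at or below 0.0702 FPKM, while the list's sum ran from 19.9 to 78.8 FPKM, nearly all of it Adgre1, which lay between 18.1 and 40.1 FPKM in the controls and between 44.1 and 76.7 FPKM after I13. Its part in the results below was not tested.

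The levels of the listed genes spanned more than 3 orders of magnitude. Ldha and Pkm, which make lactate and pyruvate, were the most abundant in both groups, with control means of 494 ± 20.1 and 480 ± 57.0 FPKM (SD, n = 3 each). Pgk1, Aldoa and Pgam1 followed at 249 ± 16.4, 229 ± 11.1 and 200 ± 42.9 FPKM, and Tpi1 and Eno1 at 129 ± 8.79 and 116 ± 11.3 FPKM (SD, n = 3 each). Ldha and Pkm did not differ beyond their spread, and neither did Pgk1, Aldoa and Pgam1 among themselves. Each of the upper steps stood lower, with hexokinase transcripts summing to 85.9 ± 6.31 FPKM, phosphofructokinase transcripts to 53.2 ± 0.135 FPKM and Gpi1 at 60.3 ± 1.95 FPKM in the controls (SD, n = 3 each). The 16 genes found that encode the enzymes of the 10 steps summed to 1780, 1539 and 1615 FPKM in control replicates 1, 2 and 3, and to 1592, 1460 and 1847 FPKM in the I13 replicates. The groups overlapped in this sum, and the ratio of their means was 0.993, so the summed level of these mRNAs differed by less than the spread between replicates. In bulk RNA, fewer cells of a type and less RNA per cell cannot be told apart.

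**Figure D1:**
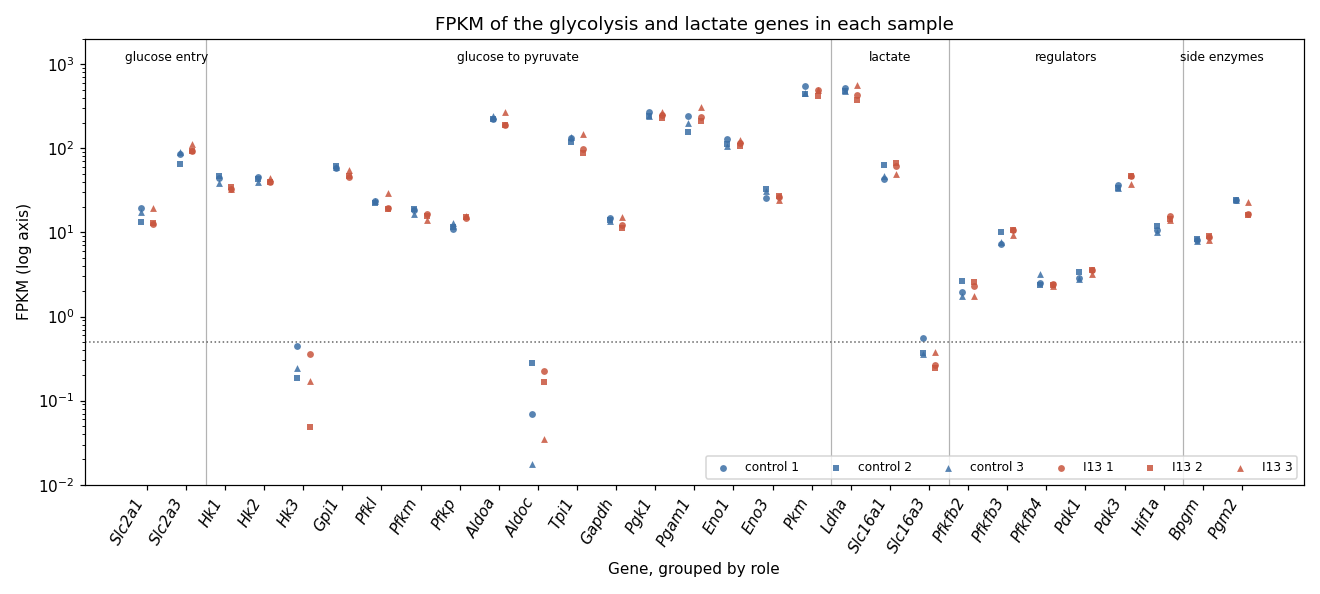
FPKM of the 29 glycolysis and lactate genes on a log axis, with controls in blue, I13 samples in red and the replicate number given by the marker shape. The dotted line marks 0.5 FPKM, the mean needed for a gene to be tested. Ldha and Pkm lie at the top, and the means of Hk3, Aldoc and Slc16a3 lie under the line.

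No tested gene of the list was called under the thresholds of the study (adjusted p under 0.05, log2 fold change 0.58 or more in size) in limma on log2(FPKM + 0.1), where 0.0411% of all 12163 genes tested were called. The same held with the replicate number as a block, where 0 of the 26 genes had an adjusted p under 0.05 against 2.99% of all genes, or 1.89% with the fold threshold added, and the smallest adjusted p of the 26 was 0.0622, for Hk1. The log2 fold changes of the 26 genes ran from -0.39 to 0.42 with a median of -0.04, against a median of -0.005 over all genes tested. At an unadjusted p under 0.05 from limma, 3 genes were higher after I13 (Pfkp, Pdk3 and Hif1a; 11.5% of the 26, against 7.79% of all genes) and 3 were lower (Hk1, Gpi1 and Pgm2; 11.5%, against 10.8% of all genes). The values of the groups did not overlap for 4 genes that were higher (15.4%, against 9.82% of all genes) and for 4 that were lower (15.4%, the same share as among all genes). These shares lie near those of all genes. A blocked fit of the recovered fragments with voom was the exception, with an adjusted p under 0.05 for 6 of the 26 genes (23.1%, against 12.4% of all genes): Slc2a3, Hk1, Gpi1, Pfkp, Pdk3 and Hif1a. None of the 6 reached the fold threshold there. In the blocked limma fit their adjusted p ran from 0.0622 for Hk1 to 0.0992 for Slc2a3. Of the genes that did not pass in the blocked voom fit, Pgm2 had the smallest adjusted p, 0.0591.

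**Figure D2:**
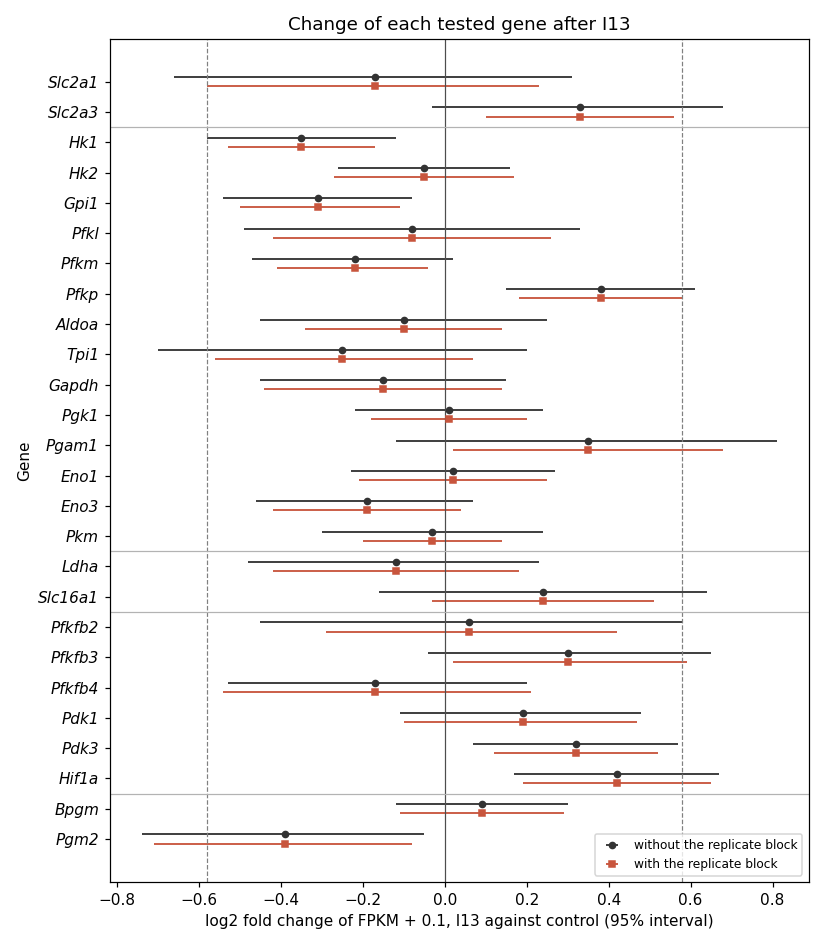
log2 fold change of FPKM + 0.1 between I13 and control for the 26 tested genes, with 95% intervals from limma without (black circles) and with (red squares) the replicate number as a block. Dashed lines mark an absolute log2 fold change of 0.58. No point lies beyond them, and the widest intervals are those of Pfkfb2, Slc2a1, Pgam1 and Tpi1.

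Glucose enters these cells through transporters that the list represents by Slc2a1 (GLUT1, the broadly expressed form) and Slc2a3 (GLUT3, a form of high affinity). Slc2a3 was the more abundant of the pair in every sample. Control replicates 1, 2 and 3 held 84.5, 64.8 and 91.1 FPKM, against 92.2, 93.8 and 114 FPKM in I13 replicates 1, 2 and 3. Each I13 value lay above every control value, by a narrow margin between 91.1 and 92.2 FPKM, and the log2 fold change was 0.33 (standard error, SE, 0.15; limma adjusted p 0.299, and 0.0433 in the blocked voom fit). Slc2a1 was listed at 19.7, 13.3 and 17.4 FPKM in the controls and at 12.5, 13.1 and 19.3 FPKM after I13, so its groups overlapped, with a log2 fold change of -0.17 and a 95% interval from -0.66 to 0.31. The ratio of Slc2a3 to Slc2a1 was 4.30, 4.87 and 5.24 in the controls and 7.39, 7.17 and 5.89 after I13. The balance between the transporters thus lay further toward Slc2a3 in each I13 sample than in any control.

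Hexokinase phosphorylates glucose and so keeps it in the cell, and the controls held Hk1 and Hk2 mRNA in nearly equal amounts. Hk1, the constitutive form, was at 44.1, 46.2 and 38.5 FPKM in the controls and at 33.1, 35.0 and 32.6 FPKM after I13. All 3 I13 samples lay under all 3 controls, with a log2 fold change of -0.35 (SE 0.10; limma adjusted p 0.144, and 0.0206 in the blocked voom fit). Hk2, the inducible form, showed 45.0, 43.0 and 39.8 FPKM in the controls and 39.7, 39.8 and 44.0 FPKM after I13, which overlapped, and its log2 fold change of -0.05 had a 95% interval from -0.26 to 0.16. The share of Hk1 in the summed hexokinase FPKM was 49.2%, 51.7% and 49.0% in the controls and 45.2%, 46.8% and 42.5% after I13, so these did not overlap either. Hk3, the form known from myeloid cells, rested on 29, 12 and 16 fragments in the controls and 23, 3 and 11 after I13, and was not tested.

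Gpi1, which turns glucose 6-phosphate into fructose 6-phosphate, was at 58.2, 62.1 and 60.5 FPKM in the controls and at 45.2, 46.8 and 54.5 FPKM after I13. The groups did not overlap, and the log2 fold change was -0.31 (SE 0.10; limma adjusted p 0.176, and 0.0389 in the blocked voom fit). Phosphofructokinase commits the sugar to glycolysis and is built from liver, muscle and platelet type subunits. The platelet type Pfkp stood at 10.9, 11.6 and 12.9 FPKM in the controls and at 15.0, 15.4 and 15.6 FPKM after I13, with no overlap and little spread within the I13 group. Its log2 fold change was 0.38 (SE 0.10; limma adjusted p 0.127, and 0.0178 in the blocked voom fit). The muscle type Pfkm stood at 18.6, 19.0 and 16.6 FPKM in the controls and lower in all 3 I13 samples, at 16.5, 15.8 and 14.1 FPKM. The margin was narrow, between 16.5 and 16.6 FPKM, and the log2 fold change was -0.22 (SE 0.10; limma adjusted p 0.295). The liver type Pfkl, the most abundant of the family in the controls, was at 23.7, 22.4 and 23.8 FPKM in the controls and at 19.3, 18.8 and 29.5 FPKM after I13. Its I13 samples lay on both sides of the controls, so the log2 fold change of -0.08 had a 95% interval from -0.49 to 0.33.

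The summed FPKM of the phosphofructokinases was 53.2 ± 0.135 in the controls and 53.3 ± 5.11 after I13 (SD, n = 3 each), while the make-up differed. Pfkp held 20.4%, 21.9% and 24.2% of the sum in the controls and 29.5%, 30.9% and 26.4% after I13. Each I13 share of Pfkp was above each control share. Pfkm held 34.9%, 35.8% and 31.2% in the controls and 32.5%, 31.6% and 23.8% after I13, which overlapped. No test was made on these shares.

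**Figure D3:**
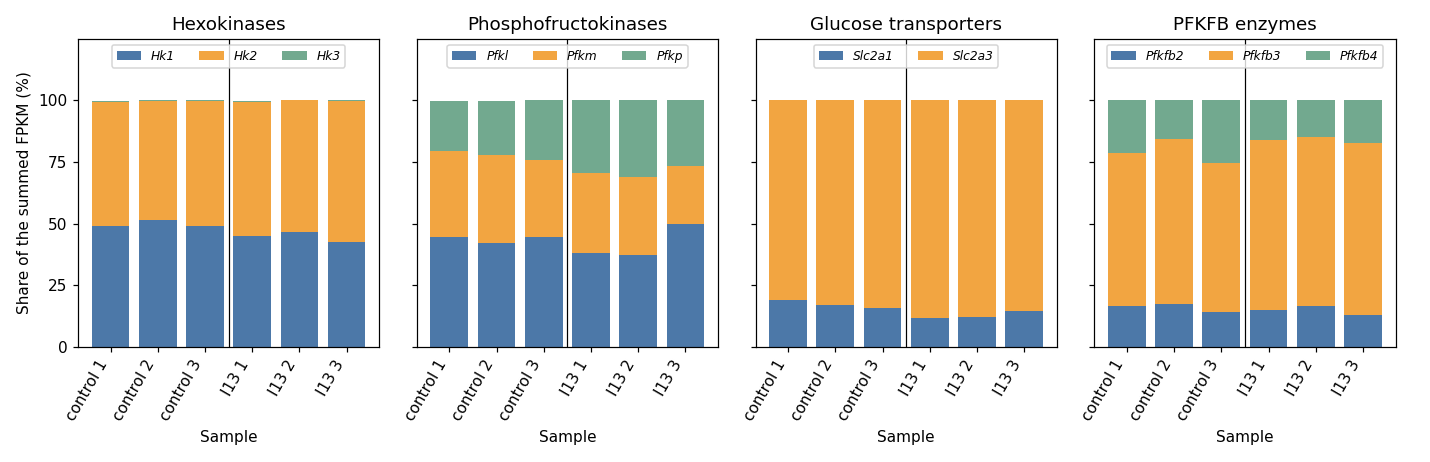
Share of each form in the summed FPKM of its family, in percent, for each of the 6 samples, with the controls left of the black line. Hk1 takes a smaller share in every I13 sample than in any control, and Pfkp, Slc2a3 and Pfkfb3 take a larger one.

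From aldolase onward the pathway carried the abundant transcripts, and for none of them were the groups apart. Aldoa, which cleaves the 6-carbon sugar, was at 223, 221 and 241 FPKM in the controls and at 189, 189 and 270 FPKM after I13. Tpi1, which interconverts the triose phosphates, was at 133, 119 and 136 FPKM in the controls and at 97.9, 88.0 and 149 FPKM after I13. Ldha, which reduces pyruvate to lactate, was at 517, 479 and 486 FPKM in the controls and at 430, 379 and 572 FPKM after I13. In all 3 genes I13 replicates 1 and 2 lay under every control and I13 replicate 3 lay above every control. Their log2 fold changes were -0.10, -0.25 and -0.12, with adjusted p from limma of 0.751, 0.523 and 0.698.

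Pgam1, a phosphoglycerate mutase, had the most positive log2 fold change among these genes, with 242, 157 and 201 FPKM in the controls against 237, 212 and 313 FPKM after I13. Its groups overlapped, and the log2 fold change of 0.35 (SE 0.20) had a limma adjusted p of 0.382. Pgk1, which makes the first ATP of the pathway, was at 249 ± 16.4 FPKM in the controls and 250.0 ± 21.0 FPKM after I13 (SD, n = 3 each), and its log2 fold change of 0.01 had a 95% interval from -0.22 to 0.24. Eno1 and Pkm had log2 fold changes of 0.02 and -0.03, with 95% intervals from -0.23 to 0.27 and from -0.30 to 0.24. For these 3 enzymes a change of the size of the study's fold threshold lay outside the interval. Eno3, the muscle type enolase, was at 29.8 ± 3.59 FPKM in the controls and 26.0 ± 1.44 FPKM after I13 (SD, n = 3 each), with a log2 fold change of -0.19 (limma adjusted p 0.401). Aldoc, the brain type aldolase, rested on at most 16 fragments in any sample.

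Gapdh, which oxidises glyceraldehyde 3-phosphate, is also the gene to which the study's PCR was normalised. It stood at 14.7, 14.1 and 13.7 FPKM in the controls and at 12.1, 11.3 and 15.2 FPKM after I13. The groups overlapped, and the log2 fold change was -0.15 with a 95% interval from -0.45 to 0.15 (limma adjusted p 0.565). Its level was lower than that of its neighbours in the pathway, Tpi1 and Pgk1, by 9.03, 8.48 and 9.89 times for Tpi1 in the controls. Gapdh is known to have many near-identical processed copies in the mouse genome, and how fragments that match several places were counted is not given in the sources used here, so its level is uncertain. The rows Gapdh-ps14 and Gapdh-ps15 held at most 0.45 FPKM in any sample. The copies Ldha-ps2, Pgam1-ps2, Pgk1-rs7 and Tpi-rs11 stood between 1.54 and 15.8 FPKM, and Eno1b, a gene nearly identical to Eno1, at 96.9 ± 5.39 FPKM in the controls and 104 ± 12.8 FPKM after I13 (SD, n = 3 each). These rows were picked by symbol after their values were seen. Eno1b was not part of the enzyme sum given above. How fragments were shared between Eno1 and Eno1b is not given either, so the level of Eno1 and that sum are uncertain too.

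The I13 samples were not alike over this list. I13 replicate 3 was the highest of the 6 samples in 9 of the 26 genes, and in 7 of the 14 tested enzymes between glucose and pyruvate, against 12.9% of all genes tested. I13 replicates 1 and 2 both lay under every control while replicate 3 did not in 7 genes (Slc2a1, Hk2, Pfkl, Aldoa, Tpi1, Gapdh and Ldha), against 5.33% of all genes. The ratio of Ldha to Gapdh was 35.2, 34.1 and 35.4 in the controls and 35.6, 33.5 and 37.6 in the I13 samples. In 5 of the 7 genes (Pfkl, Aldoa, Tpi1, Gapdh and Ldha) replicate 3 was above every control, and the ratio shows that Ldha and Gapdh kept nearly the same proportion in all 6 samples. Over the samples, the ratio to Gapdh ran from 31.2 to 40.7 for Pkm and from 15.2 to 17.8 for Aldoa. For Tpi1 it ran from 7.79 to 9.89, with I13 replicates 1 and 2 under every control. The library total of I13 replicate 3 was 17506309 fragments, within the range of the others, and its FPKM summed to 361562, between the 351350 and 367952 of control replicates 2 and 1. Over all genes tested, however, it was the lowest of the 6 samples in 23.5%, the largest such share of any sample. With median-ratio scaling the enzyme sum was 1815, 1477 and 1611 in the controls and 1585, 1398 and 1940 in the I13 samples. The part of these library-wide values in the pattern was not tested.

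Without I13 replicate 3, the genes lower after I13 at an unadjusted p under 0.05 from limma numbered 8 instead of 3 (30.8% of the 26, against 9.84% of all genes). They were Hk1, Gpi1, Pfkl, Aldoa, Tpi1, Gapdh, Ldha and Pgm2, with log2 fold changes between -0.56 and -0.27, and adjusted p from limma between 0.12 and 0.203. The genes higher were Pfkp, Pdk3 and Hif1a as before (11.5%, against 10.6% of all genes). The summed FPKM of the enzymes was 0.928 times that of the controls without this sample. It was 1.01 and 1.05 times without I13 replicate 1 or 2, and 1.04, 0.962 and 0.984 times without control replicate 1, 2 or 3. Replicate 3 was singled out above by its values of Pfkl, Aldoa, Tpi1, Gapdh and Ldha. The larger count of lower genes follows from those same values and is no separate support. Without I13 replicate 1 or without I13 replicate 2, Hk1 alone was lower at that p, against 6.73% and 8.5% of all genes. Which of the I13 samples stands for the response cannot be told from 3 libraries.

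**Figure D4:**
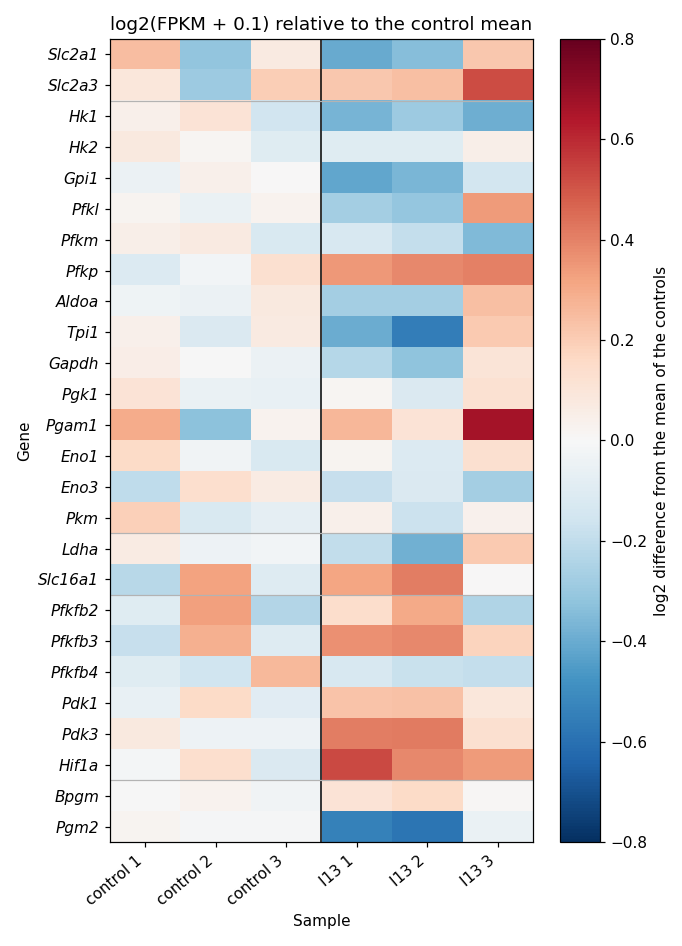
Difference of log2(FPKM + 0.1) of each sample from the mean of the 3 controls, for the 26 tested genes, with red above and blue below that mean. Aldoa, Tpi1, Gapdh and Ldha are blue in I13 replicates 1 and 2 and red in I13 replicate 3, whereas Pfkp, Pdk3 and Hif1a are red in all 3.

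Lactate leaves the cell through Slc16a1 (MCT1), which was at 42.9, 62.7 and 46.6 FPKM in the controls and at 62.3, 66.5 and 50.1 FPKM after I13. In 3 of 3 same-numbered pairs the I13 sample was the higher, although the groups overlapped, and the log2 fold change was 0.24 (SE 0.17; limma adjusted p 0.478). Slc16a3 (MCT4), the exporter typical of highly glycolytic and hypoxic cells, was low, with 52, 35 and 34 fragments in the controls and 25, 22 and 35 after I13. It made up 1.27% or less of the FPKM of both transporters in every sample.

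Among the regulators, 5 of 6 had a positive log2 fold change, against 49.2% of all genes tested. Of the 14 tested enzymes from glucose to pyruvate, 10 had a negative one, as did 6174 of all 12163 genes tested. Over all 26 listed genes 12 were positive and 14 negative. Some of these values were small, with -0.05, -0.08 and -0.03 for Hk2, Pfkl and Pkm among the enzymes and 0.06 for Pfkfb2 among the regulators. Hif1a, the subunit of HIF-1 whose protein is stabilised in low oxygen, had the largest log2 fold change of all 26 genes. It stood at 10.8, 12 and 10.1 FPKM in the controls and at 15.8, 14.3 and 13.9 FPKM after I13. The groups were apart, and the log2 fold change was 0.42 (SE 0.10; limma adjusted p 0.124, and 0.0195 in the blocked voom fit). Pdk3, a kinase that inactivates pyruvate dehydrogenase, was at 36.7, 33.9 and 33.9 FPKM in the controls and at 46.2, 46.5 and 38.1 FPKM after I13. Again no I13 value fell among the controls, with a log2 fold change of 0.32 (SE 0.11; limma adjusted p 0.189, and 0.044 in the blocked voom fit). Pdk3 made up 91.0% or more of the summed FPKM of Pdk1 and Pdk3 in every sample. Pdk1 was at 3.03 ± 0.292 FPKM in the controls and 3.45 ± 0.196 FPKM after I13 (SD, n = 3 each), higher in 3 of 3 same-numbered pairs and with an adjusted p of 0.466 from limma.

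The enzymes that set the level of fructose 2,6-bisphosphate, the activator of phosphofructokinase, were led by Pfkfb3, the form with the strongest kinase activity. It was at 7.19, 10 and 7.63 FPKM in the controls and at 10.6, 10.7 and 9.28 FPKM after I13. Control replicate 2 overlapped with the I13 samples, and the log2 fold change was 0.30 (SE 0.15; limma adjusted p 0.311). Pfkfb2 and Pfkfb4 had log2 fold changes of 0.06 and -0.17, with 95% intervals from -0.45 to 0.58 and from -0.53 to 0.20. The share of Pfkfb3 among the 3 genes was 63.0 ± 3.18% in the controls and 68.9 ± 0.602% after I13 (SD, n = 3 each).

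Of the enzymes beside the main route, Pgm2, a phosphoglucomutase that interconverts glucose 1-phosphate and glucose 6-phosphate, had the most negative log2 fold change of the list. It was at 24.6, 24.0 and 24.0 FPKM in the controls and at 16.6, 16.1 and 23.3 FPKM after I13. The I13 samples lay under the controls, replicate 3 only just, and the log2 fold change was -0.39 (SE 0.15; limma adjusted p 0.223). Bpgm, which makes 2,3-bisphosphoglycerate and is best known from red cells, was at 8.14 ± 0.148 FPKM in the controls and 8.68 ± 0.424 FPKM after I13 (SD, n = 3 each), and its log2 fold change was 0.09.

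Around the listed genes, 9 lists of the same and neighbouring pathways were counted, with 89 genes tested, and no gene of them had an adjusted p under 0.05 in limma without the block, while 18 had an unadjusted p under 0.05, 10 higher and 8 lower, where 7.79% and 10.8% of all genes did. With the block, 5 of the 89 passed, where 2.99% of all genes did: Txnip, Slc2a6, Tkt, Ero1l and Bhlhe40. Among other glucose and lactate transport genes, 2 of 9 tested had such an adjusted p and none was lower. Txnip, an arrestin-like protein that removes glucose transporters from the surface, was at 39.4, 24.6 and 35.4 FPKM in the controls and at 67.7, 53.6 and 60.7 FPKM after I13. Its groups did not overlap, with a log2 fold change of 0.89 (SE 0.18; limma adjusted p 0.109 unblocked and 0.0322 blocked). Slc2a6, a transporter of lysosomal membranes, was at 1.60, 0.424 and 3.34 FPKM in the controls and at 3.66, 1.93 and 8.29 FPKM after I13, higher in each same-numbered pair, with limma adjusted p-values of 0.337 unblocked and 0.0384 blocked. Of the 11 pentose phosphate genes tested, Tkt, the transketolase that links this pathway back to glycolysis, was lower after I13 and had an adjusted p under 0.05 with the block only. It was at 59.5, 65.5 and 56.5 FPKM in the controls and at 43.4, 44.4 and 44.4 FPKM after I13, a log2 fold change of -0.45 (SE 0.09; limma adjusted p 0.108 unblocked and 0.0459 blocked).

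Of 13 other hypoxia-inducible genes tested, 11 had a positive log2 fold change, against 49.2% of all genes tested. Their median was 0.14, and 2 had an adjusted p under 0.05 with the block. Ero1l, an oxidase of the endoplasmic reticulum, was at 58.5, 40.4 and 98.1 FPKM in the controls and at 87.7, 88.4 and 219 FPKM after I13, higher in each same-numbered pair though the groups overlapped (limma adjusted p 0.291 unblocked and 0.0384 blocked). Bhlhe40, a transcriptional repressor, was at 32, 15.3 and 25.9 FPKM in the controls and at 46.6, 36.6 and 47.5 FPKM after I13, with a log2 fold change of 0.89 (limma adjusted p 0.158 unblocked and 0.0451 blocked). In I13 replicate 3, which stood out above, Ero1l was at its highest, and so were Ndrg1 (5.21, 2.96 and 16.7 FPKM in the controls; 5.34, 3.86 and 29.3 FPKM after I13) and Bnip3 (7.77, 4.48 and 10.1 FPKM; 8.19, 4.74 and 17.5 FPKM), both known as hypoxia-inducible and named here after their values were seen. In all of Ero1l, Ndrg1 and Bnip3, control replicate 3 was also the highest control. Of the rest of the list, Bhlhe40, P4ha1, Bnip3l, Mxi1, Higd1a and Kdm3a were highest in I13 replicate 3 as well. Vegfa and Ddit4 were highest in control replicate 1, Car9 in control replicate 3 and Fam162a in I13 replicate 2. The part of these genes in the pattern of the glycolytic genes was not tested. Of the 5 tested partners and regulators of HIF-1α, 4 had a negative log2 fold change, as did 6174 of all 12163 genes tested. Hif1an, the asparagine hydroxylase that restrains HIF-1α, had -0.20 (limma adjusted p 0.272). Egln1, the main prolyl hydroxylase, had 0.02 (limma adjusted p 0.946).

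The remaining lists held no gene with an adjusted p under 0.05 in either fit. Of 14 genes for the entry of pyruvate into mitochondria, 9 had a negative log2 fold change, as did 6174 of all 12163 genes tested. Pdhb, a subunit of pyruvate dehydrogenase, was at -0.38 (limma adjusted p 0.167) and Mpc1, a subunit of the pyruvate carrier, at 0.44 (limma adjusted p 0.165). Of 11 other glycolytic isozymes and side enzymes, Pfkfb1 had -0.47 (limma adjusted p 0.207) and Pgm2l1, which makes glucose 1,6-bisphosphate, had 0.53 (limma adjusted p 0.186). All 3 gluconeogenic genes tested had negative values, where 6174 of all 12163 genes did, and the groups overlapped in each. Pck2, the mitochondrial phosphoenolpyruvate carboxykinase, had -0.85 (SE 0.41; limma adjusted p 0.312). It varied widely, with 58.8, 36.5 and 28.6 FPKM in the controls and 11.9, 27.4 and 31.9 FPKM after I13. Of 8 glycogen genes, Gys1 had -0.25 and Ugp2 had 0.17 (adjusted p = 0.445 and 0.359 from limma). Of 15 energy sensors and regulators, Rptor, a subunit of mTORC1, had -0.40 (limma adjusted p 0.123), and Prkaa1, a catalytic subunit of AMP kinase, had 0.34 (limma adjusted p 0.202).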

How the data were processed

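Total RNA was made into stranded mRNA libraries, and the authors deposited FPKM values for 22413 genes in 6 samples, with replicates not pooled. The submitters' processing notes name Trimmomatic, HISAT2, Cufflinks and HTSeq without versions, and a human genome build; the labels also give the organism as human, but the gene identifiers are those of mouse. The annotation and the treatment of fragments that match several places are not given in the sources used here.

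The 32 genes and the neighbouring lists were chosen with earlier results of these data known. All listed genes are named, and of each neighbouring list those with an adjusted p under 0.05 in either fit or, failing that, those with the smallest p in each direction. For the comparison, log2(FPKM + 0.1) was fitted in limma 3.58.1 (R 4.3.3; trended eBayes) over the 12163 genes with a mean of at least 0.5 FPKM, and p-values were adjusted over all of them by the Benjamini-Hochberg method. Fold changes on this scale understate those of low genes. Deviations of same-numbered samples from their group means correlated at 0.15, 0.30 and 0.22, all above 0.1, and those of other pairs at 0.05 or less, so the replicate numbers in the labels were taken to pair the samples. The labels do not state such a pairing. It was inferred from these same values, and deviations within a group sum to zero, so the correlations are no independent support. All p-values with the block depend on it. Fragments were recovered as whole numbers within 0.03 and cover counting error only. The recovery and the limma fits with and without the block, but not voom, were tested on simulated data. Alternatives were other pseudocounts, filters, scalings and eBayes settings, the replicate block, voom, and leaving out samples.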

Additional observations from a re-analysis of the deposited data

How the results depend on the processing

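No listed gene was called in limma under any of the 20 alternatives, although 6 of the 26 had an unadjusted p under 0.05. Over all genes the calls numbered 5, against 2 under quantile normalization, median-ratio scaling or a pseudocount of 0.01, 8 with no filter or with eBayes without a trend, and 0 to 0 when any single sample was left out. With the replicate block they numbered 230, 503 in the blocked voom fit of recovered fragments, and with the block and both samples of replicate 1, 2 or 3 left out 83, 0 and 0. The listed genes at an unadjusted p under 0.05 numbered 10 with the block (13.2% of all genes were higher and 14.8% lower at that p), 11 in the blocked voom fit (15.4% and 15.4%), 12 with the block and replicate 3 left out (14.0% and 12%), and from 3 to 11 when a single sample was left out: 3 without I13 replicate 1 or 2, and 11 without I13 replicate 3 (10.6% and 9.84%). Without any change of setting the shares of all genes were 7.79% and 10.8%.

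Of 520 log2 fold changes of listed genes under an alternative, 499 kept their sign and 21, of 8 genes, changed it, none of them near the threshold. In the blocked fit without replicate 1 they were Slc2a1 (0.06), Hk2 (0.02), Pfkl (0.03), Pkm (0.03) and Pfkfb2 (-0.02), without replicate 2 Pfkl (0.01), and without replicate 3 Pgk1 (-0.08) and Eno1 (-0.10). Quantile normalization gave 0.01 for Pkm. With single samples left out, the log2 fold change ran from -0.04 to 0.09 for Eno1, from -0.29 to 0.01 for Ldha, from -0.29 to 0.03 for Pfkl, from -0.05 to 0.23 for Pfkfb2, from -0.05 to 0.07 for Pgk1 and from -0.09 to 0.06 for Pkm. The cause of these changes was not tested. Hk3, Aldoc and Slc16a3 rested on at most 52 fragments per library and were not tested.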
